A study of Mus musculus with 16 samples.

Results

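DNA repair and PARP family genes were followed in mouse two-cell embryos, with and without a block of embryonic transcription and with a maternal pronucleus of one strain or another. Members were chosen by gene symbol alone. A probe set was a member where the platform annotation gave it a single symbol beginning with Rad and a digit, Xrcc, Brca, Fanc, Msh and a digit, Mlh and a digit, Ercc, Rmi, Neil or Parp and a digit, or where the symbol was Blm, Atm, Atr, Chek1 or Chek2. The rule found 154 of 45037 probe sets (controls apart), and these stand for 68 genes. A further probe set, annotated to both Parp10 and Plec, was left out. Probe sets reaching the 40th percentile of an array on 4 arrays or more were tested, which 131 of the 154 member probe sets and 66 of the 68 genes did. Ercc6 and Parp16 did not pass. A gene that passed this filter because it was bright in a single group had to differ between groups, so the counts below describe the 66 genes that passed and not the whole family.

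Total RNA was measured on 16 one-colour arrays, 4 in each of 4 groups. BCB embryos carried a C3H maternal pronucleus beside a B6 paternal pronucleus in B6 ooplasm, and were measured with α-amanitin, which the labels spell α-amantin, and untreated. BBB embryos carried B6 pronuclei from both parents in B6 ooplasm, and were likewise measured with α-amanitin and untreated. All 4 groups share the B6 ooplasm and the B6 paternal pronucleus. The labels give neither the dose and duration of the drug nor the number of embryos per array, nor whether the 4 replicates came from separate collections, so p-values measure the spread between these samples, which may be partly technical.

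Embryos inherit from the oocyte a stock of messenger RNA that is degraded while the embryo's own genome is switched on, in the mouse mainly at the two-cell stage. α-Amanitin inhibits RNA polymerase II, so in treated embryos new messenger RNA is not made while inherited RNA remains or decays. Cells repair DNA by separate routes: ATM and ATR kinases signal damage, homologous recombination and end joining mend double-strand breaks, the Fanconi anaemia proteins act on crosslinks, and mismatch, nucleotide excision and base excision repair act on one strand. PARP enzymes attach ADP-ribose to proteins, and some of them, PARP1 first among them, do so at DNA breaks. Fewer cells that hold a transcript and less of it per cell cannot be told apart in RNA from whole embryos.

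Replicate arrays correlated at 0.976 to 0.990 within each group, and no 2 arrays were identical. The summed intensity of 3 two-cell marker genes (Zfp352, Eif1a and Dppa4, of 5 listed) was 217 to 385 in BCB with amanitin, 6567 to 7279 in BCB, 241 to 326 in BBB with amanitin and 6828 to 7848 in BBB, so the genes that mark embryonic transcription were low in every treated array. The 7 oocyte markers summed to 21432 to 23496 in BCB with amanitin, 12470 to 13341 in BCB, 23381 to 24721 in BBB with amanitin and 11751 to 13921 in BBB. Cumulus and granulosa cell markers (8 of 9 with a probe set) summed to 341 to 355, 179 to 200, 292 to 372 and 166 to 203 in that order, with Amh at no more than 4 on any array; Kitl, the brightest of them, averaged 153 in BCB with amanitin and 88.2 in BCB, and 163 in BBB with amanitin and 85.6 in BBB. Sperm markers (6 of 6) summed to 84.1 to 102, 42.1 to 58.7, 66.1 to 91.7 and 40.6 to 75.9, and Tnp2 and Smcp did not pass the filter. The part of these cells in the results below was not tested.

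The deposited arrays were each scaled to the same trimmed mean, so a change is relative to the rest of the RNA on the array. Spiked-in poly-A control transcripts lay higher on treated arrays by 1.81 (log2) in BCB and 1.78 in BBB, hybridization controls by 0.77 and 0.51, and 18S ribosomal RNA by 1.62 and 1.26 (exact two-sided permutation test, p = 0.0286 each, the smallest that 4 against 4 arrays can give, and 0.0572 after adjustment over 16 tests). With arrays scaled to those poly-A controls, all genes had a median of -1.08 in BCB and -1.11 in BBB, against 0.17 and 0.11 on the deposited scale. Changes below are on the deposited scale unless another is named, and each rise is a rise relative to other transcripts.

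With amanitin, 27 of the 66 member genes were higher in BCB embryos and 24 were lower, where 39.9% and 31.9% of all 15274 genes tested were called (limma, adjusted p under 0.05 over all 31953 probe sets). In BBB embryos 24 were higher and 27 lower, where 37.1% and 33.1% of all genes were. The members' shares, 40.9% higher and 36.4% lower in BCB and 36.4% higher and 40.9% lower in BBB, were near those backgrounds. Their median log2 change was 0.01 in BCB and -0.01 in BBB. The kinds gave one picture: 23 genes were higher in both and 23 lower in both (33.7% and 29.9% of all genes), and no gene was called in opposite directions. By size, 14 genes were at least 2-fold lower in both kinds (19.6% of all genes) and 6 at least 4-fold lower in both (10% of all genes), namely Ercc4, Chek2, Fancf, Rad51ap1, Mlh3 and Rad9a. At least 2-fold higher in both were 6 genes (13.8% of all genes), namely Msh3, Rad51c, Rad51d, Fancc, Parp6 and Ercc6l2, and none was 4-fold higher in either kind (1.58% of all genes). Folds are on the log2(intensity + 16) scale and understate the change of dim genes. Where a gene had several tested probe sets, the one highest in mean log2(intensity + 16) was read, and by mean intensity another probe set would be read for 2 genes, Rad51ap1 and Parp1, both called lower on either.

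**Figure D1:**
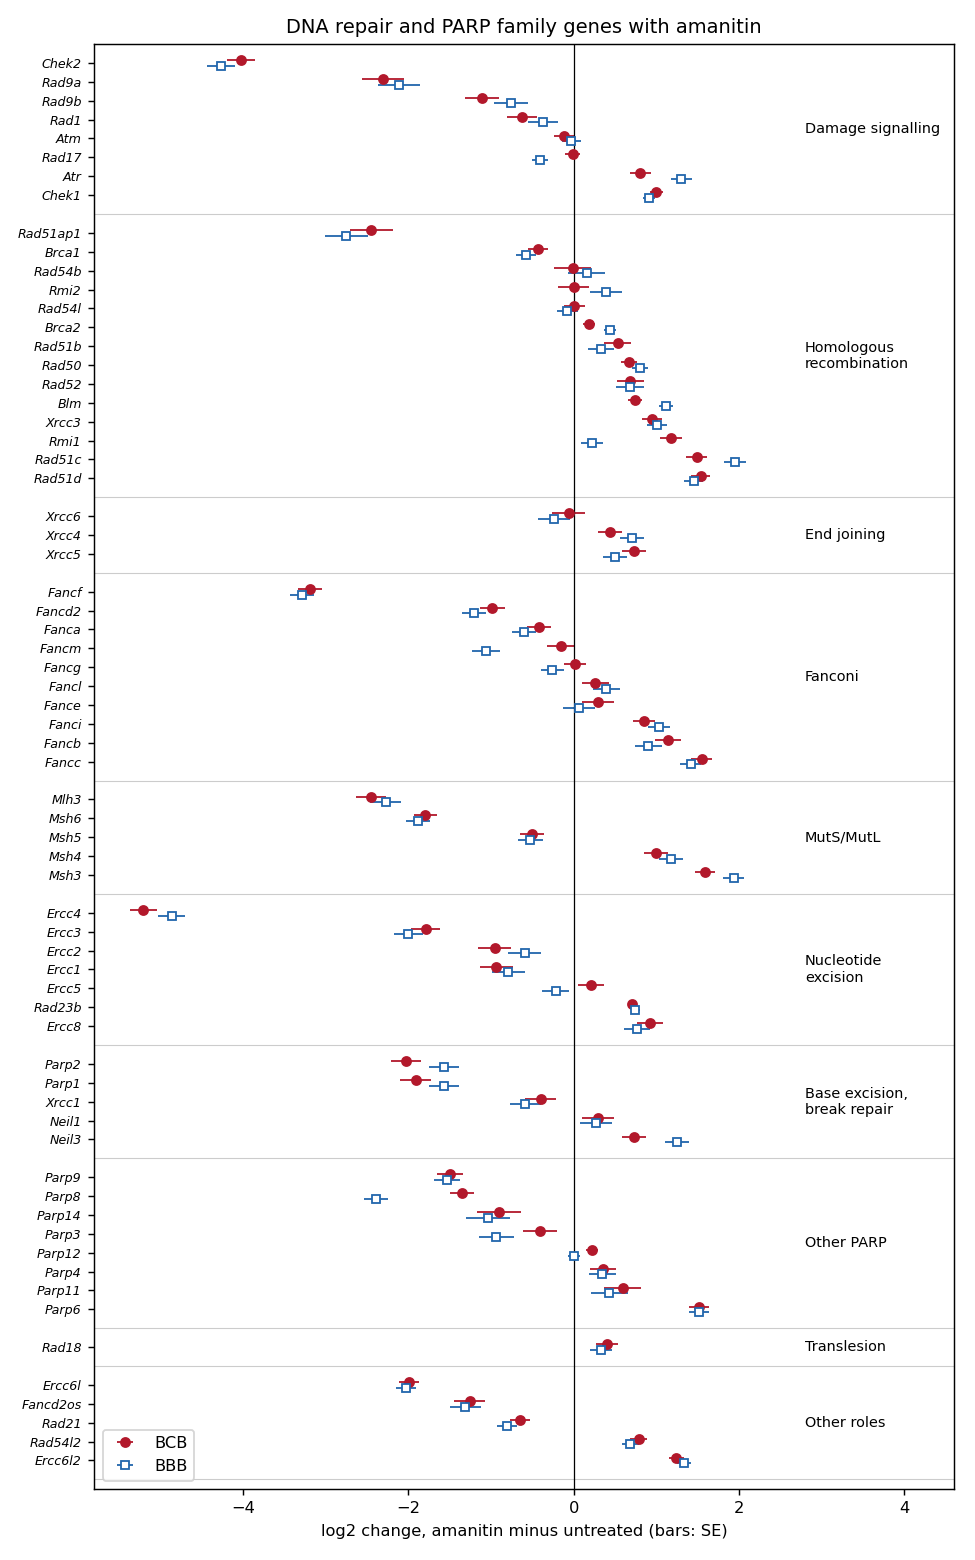
Log2 change with amanitin (amanitin minus untreated, bars are standard errors) of the 66 member genes tested, grouped by role, with BCB embryos as filled circles and BBB embryos as open squares. Ercc4 and Chek2 lie farthest left in both kinds, at -5.21 and -4.03 in BCB, while no gene passes 2 to the right of 0.

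Promoters are shown for 3 of the genes that fell most and 2 of those that rose most, to set their sequences side by side; they were chosen after their values were seen. Each sequence covers 250 bases before to 50 bases after a gene's start on GRCm38.p6, 5′ to 3′ on the gene's strand, and capitals mark matches on either strand to the 6 motifs described after them. Ercc4 is read from the plus strand of chr16:13109486-13109785, Rad51ap1 from the minus strand of chr6:126939538-126939837, Chek2 from the plus strand of chr5:110839733-110840032, Rad51c from the minus strand of chr11:87404457-87404756 and Msh3 from the minus strand of chr13:92354954-92355253.
Ercc4: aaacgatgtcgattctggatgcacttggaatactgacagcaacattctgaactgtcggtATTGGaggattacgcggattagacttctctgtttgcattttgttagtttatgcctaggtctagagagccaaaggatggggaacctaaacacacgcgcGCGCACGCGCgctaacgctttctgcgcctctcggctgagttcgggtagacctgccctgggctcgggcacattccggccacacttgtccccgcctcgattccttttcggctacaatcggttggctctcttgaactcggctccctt
Rad51ap1: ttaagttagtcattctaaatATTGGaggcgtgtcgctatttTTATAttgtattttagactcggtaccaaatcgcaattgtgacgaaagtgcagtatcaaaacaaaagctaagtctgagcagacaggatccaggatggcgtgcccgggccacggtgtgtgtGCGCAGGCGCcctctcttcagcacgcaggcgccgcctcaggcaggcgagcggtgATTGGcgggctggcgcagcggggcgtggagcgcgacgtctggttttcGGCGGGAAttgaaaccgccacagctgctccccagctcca
Chek2: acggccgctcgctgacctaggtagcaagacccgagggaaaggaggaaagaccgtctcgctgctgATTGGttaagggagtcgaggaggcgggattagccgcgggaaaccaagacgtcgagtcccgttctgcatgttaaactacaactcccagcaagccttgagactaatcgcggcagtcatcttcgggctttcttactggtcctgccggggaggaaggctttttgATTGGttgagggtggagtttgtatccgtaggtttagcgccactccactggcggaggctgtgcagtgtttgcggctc
Rad51c: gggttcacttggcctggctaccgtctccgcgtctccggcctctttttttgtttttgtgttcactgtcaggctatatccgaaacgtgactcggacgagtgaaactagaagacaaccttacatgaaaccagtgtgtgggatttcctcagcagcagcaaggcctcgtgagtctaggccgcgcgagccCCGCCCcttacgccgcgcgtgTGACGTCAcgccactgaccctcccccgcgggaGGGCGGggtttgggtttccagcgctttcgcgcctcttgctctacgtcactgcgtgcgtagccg
Msh3: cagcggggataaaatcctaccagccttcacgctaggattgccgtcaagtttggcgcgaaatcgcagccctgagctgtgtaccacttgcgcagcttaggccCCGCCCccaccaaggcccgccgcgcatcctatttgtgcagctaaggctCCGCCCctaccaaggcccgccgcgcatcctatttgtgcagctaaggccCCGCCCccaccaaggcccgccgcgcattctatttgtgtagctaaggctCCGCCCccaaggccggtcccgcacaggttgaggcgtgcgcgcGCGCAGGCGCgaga

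The motifs searched were CCAAT (bound by NF-Y), GGGCGG (bound by Sp1), TATAA, GGCGGGAA (bound by E2F, and able to overlap GGGCGG), TGACGTCA (bound by CREB) and the NRF1 motif, on both strands. Of the 66 genes tested, 54 matched the promoter table, and each gene was read from the first window listed for it. CCAAT stood in 75% of the 16 matched genes that were lower in both kinds and in 35% of the 20 that were higher in both, against 55.6% of the 54 members and 37.9% of all 27025 genes in the table. The 3 genes printed that fell carry it, Rad51ap1 and Chek2 at a pair of places each, and the 2 that rose do not. The genes printed are among those counted in these shares and add nothing to them. GGGCGG was in 62.5% of the lower genes and 70% of the higher ones, against 57.4% of the members and 35.9% of all genes, and Msh3 holds 4 copies. The NRF1 motif was in 31.2% and 15% against 18.5% of the members and 4.78% of all genes, GGCGGGAA in 18.8% and 10% against 11.1% and 2.24%, TATAA in 18.8% and 10% against 13% and 25.5%, and TGACGTCA in 0% and 10% against 3.7% and 1.88%. These shares describe letters in a fixed window and were not tested.

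The damage signalling genes split between their kinases. Chek1, the kinase that acts below ATR, and Atr itself rose in both kinds of embryo, while Chek2, the kinase that acts below ATM, fell by more than any member but Ercc4, as genes are read here. Of 8 genes 2 rose (25%) and 4 fell (50%) in each kind. Of all genes 39.9% rose and 31.9% fell in BCB, and 37.1% and 33.1% in BBB. Median log2 changes of the 8 were -0.37 in BCB and -0.39 in BBB, against 0.17 and 0.11 over all genes. Chek2 read 29.5, 21.9, 25.2 and 49.7 in BCB with amanitin, against 873.7, 662.2, 773.1 and 672.9 in BCB. In BBB with amanitin it read 38.1, 28.1, 19.7 and 18, against 838.5, 897.3, 719.6 and 674.4 in BBB. No treated array came near an untreated one, and the change was -4.03 (SE 0.17, adjusted p = 1.18e-15) in BCB and -4.27 (SE 0.17, adjusted p = 4.22e-16) in BBB.

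Chek1 was the brightest gene of this set and moved the other way. It read 4362.5, 4284, 4848 and 4626.9 in BCB with amanitin, against 2242, 2431.5, 2042 and 2328.8 in BCB. It read 4662.8, 4786.2, 4415.9 and 4949.5 in BBB with amanitin, against 2198, 2391.5, 2741.9 and 2657.9 in BBB. Treated arrays lay above all untreated ones, with changes of 0.999 in BCB and 0.91 in BBB (SE 0.08 each), and 4 of its 5 tested probe sets were called higher in each kind. Atr read 263.1, 326.1, 285.4 and 336.7 in BCB with amanitin, against 198.6, 145, 151.8 and 170.6 in BCB, and 382.8, 399.1, 351.1 and 427.2 in BBB with amanitin, against 132.5, 159.6, 158.7 and 143.1 in BBB. Its changes were 0.81 and 1.30 (SE 0.12 each), without overlap of the groups. Relative to the poly-A controls both rises turned: Chek1 was at -0.80 in BCB and -0.86 in BBB, and Atr at -0.87 and -0.36. Atm, the kinase that answers double-strand breaks, changed by -0.12 and -0.03 (adjusted p = 0.389 and 0.846), with overlapping groups of 338 to 521. A dimmer probe set of Atm was called higher in BBB.

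The clamp that holds ATR signalling at damaged DNA is built from Rad9a or its paralogue Rad9b, Rad1 and Hus1, and Rad17 loads it. Rad9a read 64.7, 58.4, 79.9 and 20.7 in BCB with amanitin, against 299.3, 345.5, 313.1 and 324.6 in BCB, and 104, 66.9, 89.3 and 28.5 in BBB with amanitin, against 342.2, 295.7, 355.4 and 381 in BBB. It fell by 2.31 in BCB and by 2.12 in BBB (SE 0.25 each), and replicate 4 was the lowest in both treated groups. Rad9b, a dimmer gene, fell by 1.11 and 0.76. Rad1 was called in BCB alone (-0.62, adjusted p = 0.0038, against -0.37, adjusted p = 0.0702 in BBB), and Rad17 in BBB alone (-0.01, adjusted p = 0.927 in BCB, against -0.41, adjusted p = 0.000467). The difference between kinds was not called for either gene.

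**Figure D2:**
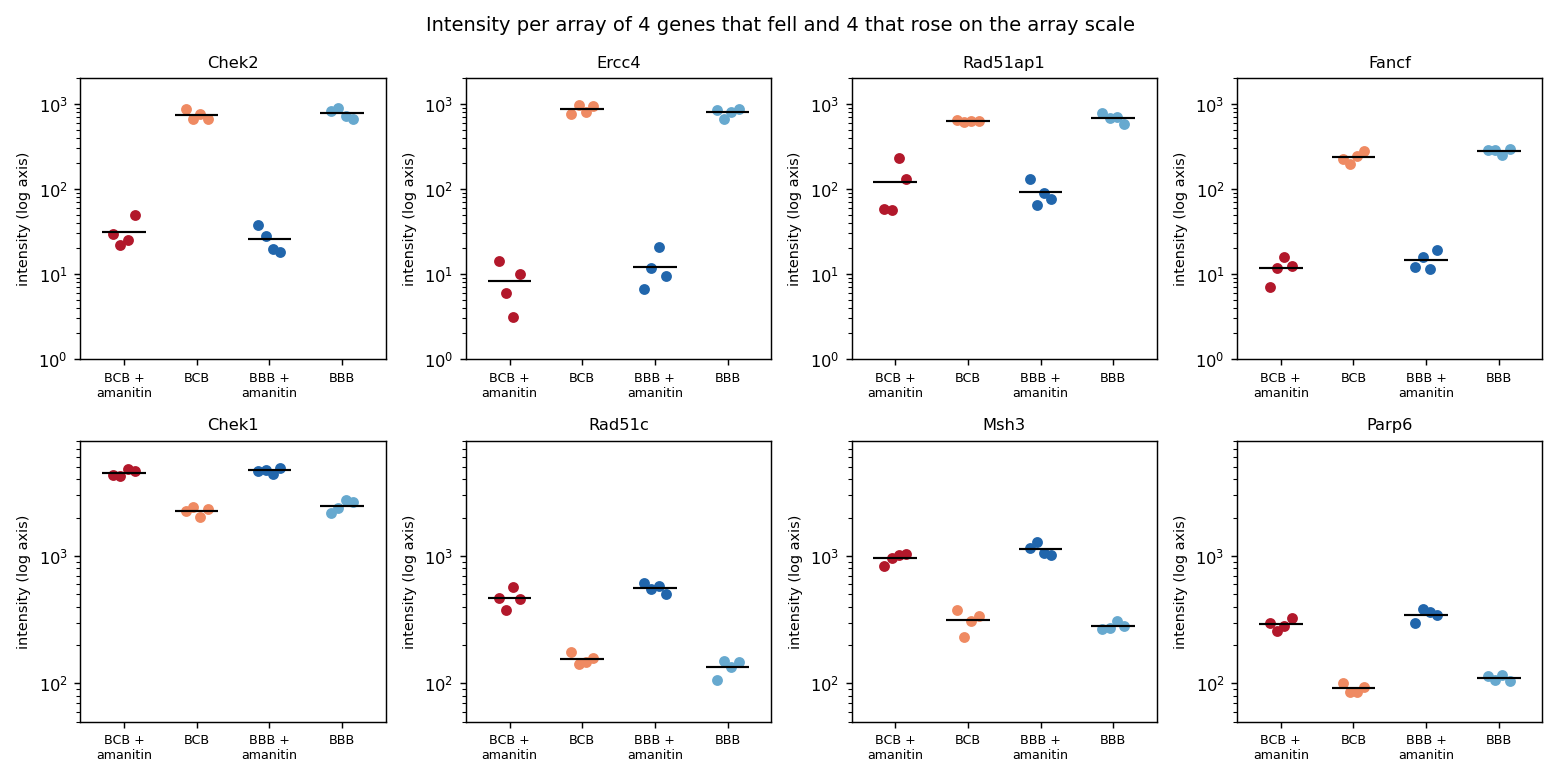
Intensity on each array (log axis) of Chek2, Ercc4, Rad51ap1 and Fancf, which fell with amanitin, and of Chek1, Rad51c, Msh3 and Parp6, which rose on the deposited scale; points are arrays, black lines are means of 4, and axes differ between the rows. In all 8 genes the treated arrays do not overlap the untreated arrays of the same kind, and Ercc4 reads 3.1 to 21 on treated arrays against 667 to 985 on untreated ones.

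Homologous recombination, the largest set, held more rises than falls. Of 14 genes, 9 rose and 2 fell in BCB (64.3% and 14.3%, against 39.9% and 31.9% of all genes). In BBB 7 rose and 2 fell (50% and 14.3%, against 37.1% and 33.1%). Medians were 0.60 and 0.41. Genes whose proteins help the recombination filament form on DNA were among those that rose: Rad51c, Rad51d and Xrcc3 in both kinds and, on the probe set read, Rad51b in BCB. Rad51c read 470.6, 377.2, 574.6 and 459.2 in BCB with amanitin, against 177.4, 140.9, 147.7 and 159.1 in BCB. In BBB it read 619.4, 555.9, 578.4 and 502.5 with amanitin, against 106.8, 149.5, 134.5 and 148.5 untreated. The groups were apart in both kinds, by 1.49 in BCB and 1.95 in BBB (SE 0.13 each). Rad51d read 685, 738.5, 567.6 and 673 in BCB with amanitin, against 185.1, 224.6, 223.2 and 244.5 in BCB, and 611.2, 686, 667.1 and 613.8 in BBB with amanitin, against 198.6, 214.7, 245.6 and 245.3 in BBB. It rose by 1.54 and 1.45 (SE 0.11 each), on all 3 of its tested probe sets. Xrcc3 rose by 0.94 and 1.01, and Rad51b, dim on every array, by 0.53 in BCB (adjusted p = 0.00527), with 0.33 in BBB (adjusted p = 0.0719). The other tested probe set of Rad51b was called higher in both kinds.

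Rad51ap1, which aids strand pairing in recombination, moved the other way. It read 58.3, 56.7, 234.2 and 132 in BCB with amanitin, against 652.3, 618.4, 639.6 and 623.7 in BCB, and 132.8, 65.4, 89.8 and 76.2 in BBB with amanitin, against 778, 683.8, 702.7 and 589.8 in BBB. All treated arrays lay below all untreated arrays, although the treated BCB arrays were widely spread. It fell by 2.45 in BCB and by 2.75 in BBB (SE 0.26 each), and its 4 tested probe sets were all called lower. The probe set read has the suffix s. A second, brighter in mean intensity (460 against 383 over 16 arrays), read 0.7 to 38.1 in BCB with amanitin against 779 to 1021 in BCB, and 6 to 25.8 in BBB with amanitin against 771.6 to 1033.5 in BBB. On it the change was far larger, -5.03 in BCB and -4.89 in BBB (SE 0.24 each). Brca1, a scaffold that starts recombination, also fell, by 0.43 and 0.58 (adjusted p = 0.0028 and 0.000174), and under quantile normalization its fall in BCB was no longer called (-0.22).

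Brca2, which acts in the strand exchange of recombination, was the brightest gene of this set, at 4310, 3998.3, 4243.2 and 4509.3 in BCB with amanitin, against 3827, 3745.8, 3770.2 and 3695.7 in BCB, and 4875.4, 5166.4, 4274.6 and 5466.2 in BBB with amanitin, against 3490.2, 3344.6, 3739.7 and 4028 in BBB. Its rises were small, 0.18 in BCB (SE 0.07, adjusted p = 0.0339) and 0.43 in BBB (SE 0.07, adjusted p = 1.44e-05). Under quantile normalization the direction turned, to -0.37 in BCB and -0.15 in BBB, both called lower, and relative to either set of control transcripts it was below 0 as well. The BCB call was also lost without BCB replicate 2, 3 or 4, or without BCB with amanitin replicate 1, 3 or 4 (0.15 to 0.18). Blm, the Bloom syndrome helicase, rose by 0.75 and 1.12, Rad50, a subunit of the complex that senses broken ends, by 0.67 and 0.80, and Rad52, which anneals single strands, by 0.69 and 0.68. On the poly-A scale none of the rises in BCB lay above 0, and in BBB Rad51c did (0.27, not called). Relative to the hybridization controls Blm and Rad50 were at or below 0 in BCB (-0.01 and -0.09). Rad54l and Rad54b, motors that remodel DNA in recombination, and Rmi2 were not called; Rad54l's brightest probe set was at 0.01 and -0.08, while 2 dimmer ones were called higher in both kinds.

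All 3 end joining genes were dim to moderate. Xrcc5, which encodes Ku80, read 126, 109.4, 96.3 and 93 in BCB with amanitin, against 59.7, 60.4, 55.5 and 53.6 in BCB, and 129.1, 91.8, 115.2 and 108.6 in BBB with amanitin, against 73.3, 63.2, 91.6 and 68 in BBB. The change was 0.73 in BCB and 0.50 in BBB (SE 0.14 each), and the BBB groups nearly touch. Xrcc4, the partner of DNA ligase IV, read 114.1, 130, 116.1 and 108.3 in BCB with amanitin, against 74.2, 91.6, 75.4 and 88 in BCB, and 144, 148.3, 123.8 and 198.5 in BBB with amanitin, against 76.7, 84.8, 100.5 and 86.5 in BBB. It rose by 0.44 and 0.71. Xrcc6, which encodes Ku70, the other Ku subunit, was not called (-0.06 and -0.24). Relative to the poly-A controls Xrcc5 was at -0.75 in BCB and -1.01 in BBB, and Xrcc4 at -1.10 and -0.86; relative to the hybridization controls Xrcc4 was at -0.22 in BCB.

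Within the Fanconi anaemia core complex, which tags FANCD2 and FANCI with ubiquitin at crosslinks, subunits parted. Of 10 genes of the pathway 3 rose and 3 fell in BCB (30% each, against 39.9% and 31.9% of all genes). In BBB 4 rose and 4 fell (40% each, against 37.1% and 33.1%). Medians were 0.14 and -0.10. Fancf, a core subunit, read 7, 11.7, 15.7 and 12.4 in BCB with amanitin, against 222.6, 197, 245 and 283.9 in BCB. It read 12.1, 15.8, 11.6 and 19.1 in BBB with amanitin, against 290.3, 291.2, 251.2 and 298.4 in BBB. Treated arrays were near the lower end of the scale throughout, and the gene fell by 3.19 and 3.29 (SE 0.15 each); of its 3 tested probe sets this one alone was called. Fancc, also in the core, read 647.8, 548.1, 533.5 and 502.7 in BCB with amanitin, against 189, 152.3, 171 and 210.8 in BCB, and 567.7, 417.7, 449.3 and 537.7 in BBB with amanitin, against 161.3, 187.5, 180.6 and 166.5 in BBB. It rose by 1.55 and 1.41 (SE 0.12 each), with the groups apart.

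Fancb, a core subunit on the X chromosome, rose by 1.14 and 0.90, and Fanci by 0.85 and 1.03. Fancd2, the other target of the complex, fell by 0.98 and 1.21, but a dimmer probe set of it was called higher in both kinds. Fanca fell by 0.42 and 0.60, a call lost in both kinds under quantile normalization (-0.09 and -0.26), and in BCB without BCB replicate 1 or 4 or BCB with amanitin replicate 3 (-0.36 to -0.33). Fancl, the ligase subunit, was called in BBB alone (0.26, adjusted p = 0.157 in BCB, and 0.39, adjusted p = 0.0374 in BBB), a call lost without BBB replicate 1 or 4, or BBB with amanitin replicate 1, 2 or 3 (0.36 to 0.40). Fance and Fancg were not called, though a dimmer probe set of Fance was called higher in BCB. Against the poly-A controls every rise of this pathway, as genes are read here, lay below 0, Fancc at -0.17 and -0.27.

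All 5 MutS and MutL homologues were called in both kinds, 2 higher (40%) and 3 lower (60%). Of all genes 39.9% were higher and 31.9% lower in BCB, and 37.1% and 33.1% in BBB. MSH6 takes part in finding single mispairs and MSH3 in finding longer loops, and their genes moved apart. Msh3 read 831, 968, 1025.3 and 1030.3 in BCB with amanitin, against 377.5, 232.5, 308.1 and 337.4 in BCB. It read 1162, 1286.3, 1058.4 and 1023 in BBB with amanitin, against 265.2, 274.7, 309.2 and 284.8 in BBB. No treated array fell among the untreated, and the rise was 1.59 in BCB and 1.94 in BBB (SE 0.12 each), though a dimmer probe set was not called. Msh6 read 102, 173.9, 154.1 and 145.8 in BCB with amanitin, against 644.3, 499.7, 520.4 and 473.3 in BCB, and 123.1, 117, 100.4 and 144.3 in BBB with amanitin, against 518.7, 511.7, 490.8 and 433.8 in BBB. It fell by 1.79 and 1.89 (SE 0.14 each). Mlh3, which acts at meiotic crossovers, read 18.8, 4.8, 26.5 and 11.5 in BCB with amanitin, against 129.1, 151.9, 177.8 and 145.2 in BCB, and 16.9, 10.5, 8.6 and 10.6 in BBB with amanitin, against 117, 117.1, 103.8 and 132 in BBB. It fell by 2.45 and 2.28 (SE 0.18 each).

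Msh4 and Msh5 act as a pair in meiosis. Msh4 rose by 0.999 and 1.18, and Msh5 fell by 0.50 and 0.53, a call lost in both kinds under quantile normalization (-0.28 and -0.25). Relative to the poly-A controls Msh3 was at -0.17 in BCB and 0.21 in BBB, neither called, and Msh4 at -0.61 and -0.41.

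Nucleotide excision repair held the largest fall among genes as read here, although the second probe set of Rad51ap1 fell slightly more in BBB. Ercc4 encodes XPF, the nuclease that cuts on the 5′ side of a lesion. It read 14.2, 6, 3.1 and 10.1 in BCB with amanitin, against 760.3, 984.6, 807.2 and 944.7 in BCB. It read 6.7, 11.7, 21 and 9.6 in BBB with amanitin, against 860.8, 667.1, 801.4 and 862.2 in BBB. The change was -5.21 in BCB (SE 0.16, adjusted p = 5.76e-18) and -4.87 in BBB (SE 0.16, adjusted p = 1.91e-17), which is 36.9-fold and 29.1-fold on this scale, where the 40th percentile of an array was 10.8 to 14.1. A second probe set of the gene read 14.6 to 44 in BCB with amanitin, against 128 to 195 in BCB, and changed by -1.999 and -1.52. Of its other 2, dimmer still, 1 was called lower in BCB alone (-0.96) and 1 in BBB alone (-0.82).

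Ercc1, the partner of XPF in that nuclease, fell by 0.94 and 0.79. The helicases of the repair factor TFIIH fell as well, Ercc3 by 1.79 and 2.001 and Ercc2 by 0.96 and 0.59; in BBB the calls of Ercc1 and Ercc2 were lost under quantile normalization (-0.44 and -0.23), and that of Ercc2 without BBB replicate 4 (-0.45). Ercc5, which encodes the nuclease of the 3′ side, was not called (0.21 and -0.22). Rad23b, which steadies the damage sensor XPC, was the brightest, at 5199.4, 5196.1, 5038.1 and 4774.7 in BCB with amanitin, against 3145, 3022.3, 2935.9 and 3212.4 in BCB, and 4780.1, 4773.4, 5060 and 5074.1 in BBB with amanitin, against 2855.1, 2848.6, 3068.2 and 2941.4 in BBB. It rose by 0.71 and 0.75 (SE 0.06 each), though its dimmest probe set was called lower in BCB. Ercc8, which acts in repair coupled to transcription, read 147.4, 140.1, 141.3 and 136.8 in BCB with amanitin, against 70.3, 62.1, 64.3 and 72.3 in BCB, and 133.3, 166, 175.6 and 95.4 in BBB with amanitin, against 79.5, 60.4, 87.1 and 75.8 in BBB, and rose by 0.92 and 0.77. Against the poly-A controls Rad23b was at -1.09 and -1.03 and Ercc8 at -0.62 and -0.77, and relative to the hybridization controls Rad23b was at -0.06 in BCB. In all, 2 of the 7 genes tested rose (28.6%) and 4 fell (57.1%) in each kind, with medians of -0.94 and -0.59. Shares over all genes were 39.9% higher and 31.9% lower in BCB, and 37.1% and 33.1% in BBB. Ercc6, which failed the filter, read 3.4 to 14.8 over all 16 arrays.

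Parp1 and Parp2, which are break sensors of the PARP family, fell side by side. Parp2 read 67.2, 57, 126 and 116.9 in BCB with amanitin, against 413.7, 451.7, 425.4 and 343.2 in BCB, and 112.8, 161.4, 91.3 and 130.7 in BBB with amanitin, against 432.7, 401.7, 355.1 and 384.1 in BBB. Parp1 read 92.5, 85.3, 68.2 and 157.2 in BCB with amanitin, against 344.4, 452.4, 407.3 and 436.3 in BCB, and 98.7, 126.6, 99.8 and 169.2 in BBB with amanitin, against 403.7, 417.4, 329.7 and 422.7 in BBB. Treated and untreated arrays did not overlap in either gene. Parp2 fell by 2.03 in BCB and by 1.57 in BBB, and Parp1 by 1.91 and 1.57 (SE 0.18 each), on all 4 of its tested probe sets. A Parp1 probe set brighter in mean intensity (286 against 257) gave -2.68 and -2.57 (SE 0.14 each). Xrcc1, the scaffold that PARP1 recruits, fell in BBB (-0.58, adjusted p = 0.00948) with -0.40 in BCB (adjusted p = 0.0655), and the BBB call was lost under quantile normalization (-0.22) or without BBB with amanitin replicate 1 (-0.42). Neil3, a glycosylase that removes oxidized bases, read 121.5, 152, 150.5 and 204.6 in BCB with amanitin, against 94.1, 82.4, 79.3 and 93.1 in BCB, and 175.5, 211.9, 190.9 and 168.9 in BBB with amanitin, against 80.9, 55.9, 64.5 and 77.1 in BBB. It rose by 0.73 and 1.25 (SE 0.15 each), and relative to the poly-A controls was at -0.85 and -0.31. Its relative Neil1 was not called. Among the 5 genes of base excision and single-strand break repair, 1 rose and 2 fell in BCB (20% and 40%, against 39.9% and 31.9% of all genes). In BBB 1 rose and 3 fell (20% and 60%, against 37.1% and 33.1%).

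The remaining PARP family genes tested number 8. In BCB 3 rose and 3 fell (37.5% each, against 39.9% and 31.9% of all genes). In BBB 1 rose and 4 fell (12.5% and 50%, against 37.1% and 33.1%). Parp6, which transfers single ADP-ribose units, read 300.9, 256.7, 283.7 and 325.6 in BCB with amanitin, against 100, 85.9, 86.2 and 93 in BCB, and 296.6, 385.7, 361 and 342.7 in BBB with amanitin, against 113.6, 106.9, 116.2 and 104.2 in BBB. It rose by 1.52 in each kind (SE 0.12). Parp9, a macrodomain PARP known from the interferon response, read 44.4, 48.4, 50.7 and 71.5 in BCB with amanitin, against 157.4, 222.6, 167.1 and 175.5 in BCB, and 51.8, 35.5, 54.9 and 54.4 in BBB with amanitin, against 192.6, 194.5, 160.9 and 140 in BBB. It changed by -1.499 and -1.53 (SE 0.16 each). Parp14, another macrodomain PARP, fell by 0.90 and 1.04, with treated BCB arrays of 4.9 to 51.3 that overlap the untreated ones.

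Parp12, a zinc finger PARP, was the brightest of the family and hardly moved. It read 4287.8, 4101.4, 4025 and 3627.5 in BCB with amanitin, against 3641.1, 3273.2, 3283.3 and 3529.9 in BCB, and 3224.3, 3273.8, 3430.4 and 3442.7 in BBB with amanitin, against 2978.1, 3150.5, 3518.1 and 3758.2 in BBB. The groups overlap in both kinds, at 0.22 in BCB (adjusted p = 0.011) and 0.00 in BBB (adjusted p = 0.985). Under quantile normalization it was called lower in both (-0.31 and -0.54), and it was below 0 relative to either set of control transcripts. Parp11 was called higher in BCB (0.59, adjusted p = 0.0232) and lower on a second probe set; the rise was not called without BCB replicate 2 or 4, or BCB with amanitin replicate 1, 2 or 3 (0.49 to 0.54). Parp3 was called lower in BBB (-0.94), with -0.41 in BCB (adjusted p = 0.0903), on the probe set read. Of its 3 tested probe sets, the other 2 were called lower in both kinds. Parp4 was not called, and Parp16 read 0.7 to 12.7 over all arrays. On the poly-A scale Parp6 was at -0.12 and -0.13, not called.

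**Figure D3:**
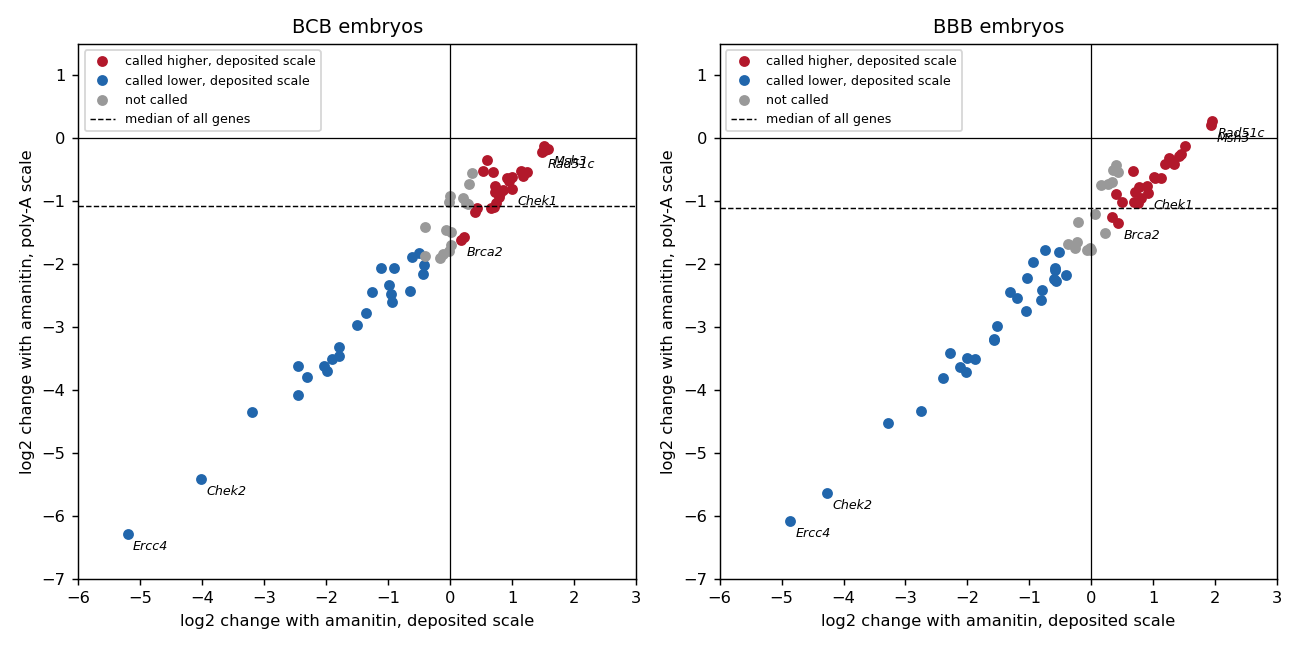
Log2 change with amanitin of the 66 member genes on the deposited scale (x axis) and after scaling each array to its poly-A controls (y axis), for BCB embryos (left) and BBB embryos (right); colours give the call on the deposited scale, and the dashed line is the median of all genes on the poly-A scale. Genes called higher on the deposited scale lie at or below 0 on the poly-A scale except Msh3 and Rad51c in BBB, while genes called lower stay below the dashed line.

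Rad18, the ligase that marks PCNA for synthesis past lesions, read 132.4, 144.7, 133 and 134.9 in BCB with amanitin, against 107.3, 97.4, 86.7 and 106.7 in BCB, and 120.9, 155.3, 174.7 and 153.2 in BBB with amanitin, against 95.7, 122.5, 128.6 and 118.6 in BBB. It rose by 0.40 and 0.33, with overlap in BBB, where the call was lost without BBB replicate 1 or without BBB with amanitin replicate 2, 3 or 4 (0.25 to 0.32). Its probe sets disagreed: a second was 1.24 and 1.29 higher, and the dimmest was called lower in both. On the poly-A scale the brightest was at -1.18 and -1.26, and relative to the hybridization controls at -0.28 and -0.12.

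Another 5 genes share a name stem with repair genes and were grouped apart from the pathway sets above. That grouping does not exclude a part in repair. Rad21, the cohesin subunit cut at anaphase, read 1237.7, 1565.8, 1062.2 and 868.4 in BCB with amanitin, against 1794.8, 1691, 1934.3 and 1867.2 in BCB, and 1065, 891.5, 1051.6 and 988.5 in BBB with amanitin, against 1877.6, 1858.2, 1791.6 and 1517.4 in BBB. It fell by 0.65 and 0.81 (SE 0.12 each), and the groups did not overlap. Ercc6l, a helicase of mitotic DNA bridges, read 271.4, 219.4, 232.2 and 183.5 in BCB with amanitin, against 922.8, 1080.2, 980 and 806.7 in BCB, and 189.5, 186.9, 238.1 and 242.9 in BBB with amanitin, against 1030.5, 919.7, 860.5 and 868.2 in BBB, and fell by 1.99 and 2.03. Its relative Ercc6l2 read 1261, 1321.9, 1379.6 and 1384.9 in BCB with amanitin, against 559, 544.9, 519.2 and 599.8 in BCB, and 1222.2, 1222.1, 1183.2 and 1389.8 in BBB with amanitin, against 483.5, 449.2, 490.6 and 529.7 in BBB. These relatives moved apart, since Ercc6l2 rose by 1.24 and 1.33 (SE 0.09 each), and was at -0.53 and -0.41 relative to the poly-A controls. Fancd2os, on the strand opposite Fancd2, fell by 1.26 and 1.31, and Rad54l2, a remodelling ATPase, rose by 0.78 and 0.69, with -0.94 and -1.02 on the poly-A scale.

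Several genes were read by more than a single probe set, and 5 of 34 such genes had probe sets called in opposite directions within a kind, where 15.8% of all 6804 such genes did. They were Fancd2, Parp11, Rad18, Rad23b and Rad52. In Rad52 the brighter probe set rose by 0.69 and 0.68 while the dimmer was at -0.50 in each kind (adjusted p = 0.0356 and 0.0365). Probe sets of a gene can read different transcript ends, and those with the suffix s or x, among them the ones read for Chek1, Rad23b, Ercc1, Rad51ap1 and Parp3, can share sequence with other transcripts.

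Other genes of the same pathways were taken from a list of 105 partners, of which 96 were tested. In BCB 37 rose and 45 fell (38.5% and 46.9%, against 39.9% and 31.9% of all genes). In BBB 38 rose and 44 fell (39.6% and 45.8%, against 37.1% and 33.1%). Medians were -0.16 and -0.06. The shares over all genes are also the background for each partner list below. Damage signalling partners fell in 8 of 11 cases in each kind and rose in 3 in BCB and 2 in BBB, and Clspn, the adaptor between ATR and CHK1, averaged 214 ± 34.2 in BCB with amanitin and 1512 ± 99.4 in BCB, and 229 ± 52.3 in BBB with amanitin and 1397 ± 31.2 in BBB (SD, n = 4 each), a fall of 2.74 and of 2.55. Rnf168, a ubiquitin ligase at breaks, rose by 0.60 and 0.57. Homologous recombination partners fell in 14 of 23 cases in BCB and 12 in BBB and rose in 6, and Rpa2, a subunit of the protein that coats single strands, fell the most (-3.93 and -3.82). It averaged 39.4 ± 9.21 in BCB with amanitin and 817 ± 41.7 in BCB, and 35.9 ± 6.39 in BBB with amanitin and 719 ± 112 in BBB. Exo1, a nuclease that resects ends, rose by 1.29 and 1.27.

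**Figure D4:**
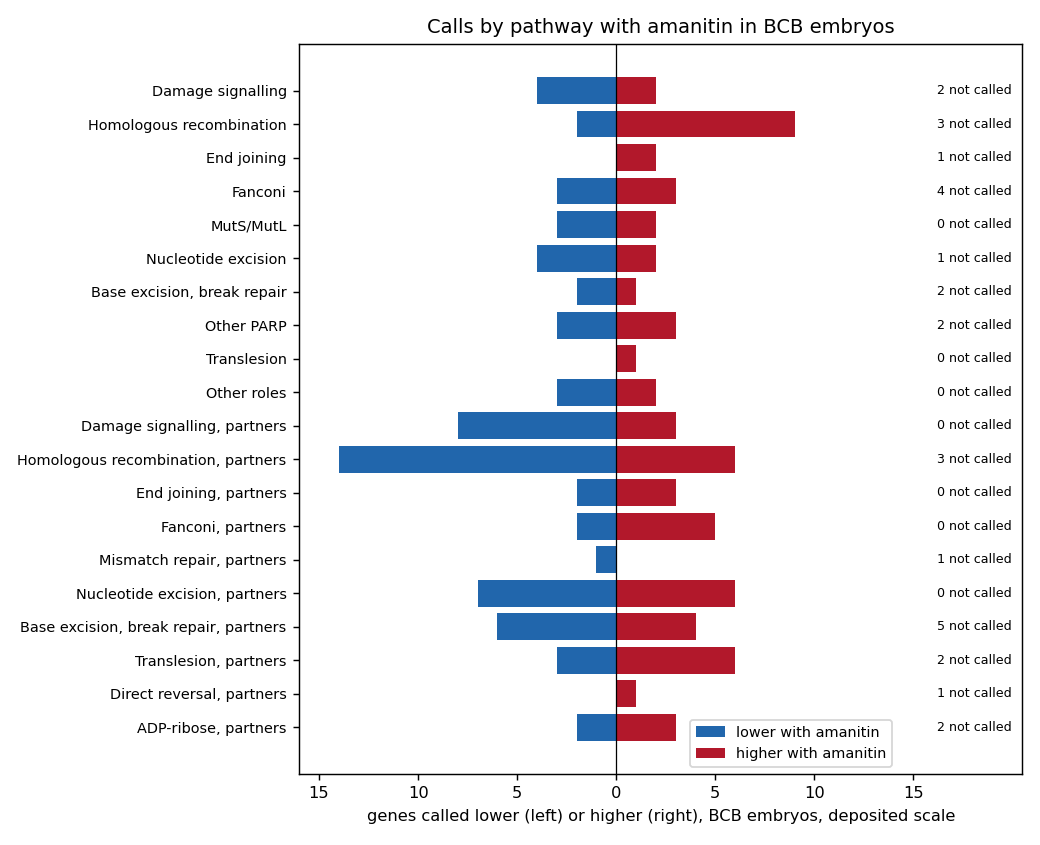
Number of genes called lower (left of 0, blue) or higher (right of 0, red) with amanitin in BCB embryos on the deposited scale, for the 10 member sets and the 10 partner lists, with the number not called at the right. Homologous recombination members have 9 higher and 2 lower, while its partners have 6 higher and 14 lower. Of all genes tested, 39.9% were called higher and 31.9% lower in BCB.

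Among end joining partners 3 rose and 2 fell in each kind: Nhej1, which bridges ends, rose by 1.49 and 1.62, and Prkdc, the catalytic subunit of DNA-PK, fell by 2.54 and 2.26. Of 7 Fanconi partners 5 rose and 2 fell in each kind, with Wdr48 at 1.15 and 1.13, Faap100 at 1.02 and 1.36, and Ube2t, which supplies the ubiquitin, at -2.05 and -2.35. Pms2, a mismatch repair gene, fell by 2.02 and 2.09. Nucleotide excision partners split into 6 higher and 7 lower, from Cetn2 at 1.22 and 1.02 to Gtf2h4, a TFIIH subunit, at -2.85 and -3.35. Base excision partners split too, with 4 of 15 higher and 6 lower in BCB, and 5 and 6 in BBB. Tdp1, which clears blocked 3′ ends, rose by 1.65 and 1.63, and the glycosylase Ogg1 by 1.09 and 1.90, while the endonucleases Apex1 and Apex2 fell (-2.51 and -2.50 in BCB, -2.21 and -2.65 in BBB).

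Translesion partners had 6 of 11 higher and 3 lower in each kind. Polh, the polymerase that copies past ultraviolet lesions, averaged 13.4 ± 7.76 in BCB with amanitin and 732 ± 47.6 in BCB, and 12.3 ± 5.20 in BBB with amanitin and 682 ± 68 in BBB (SD, n = 4 each), a change of -4.70 and of -4.64. Ube2b, the ubiquitin-conjugating enzyme that works with RAD18, averaged 1363 ± 92.1 in BCB with amanitin and 411 ± 64.1 in BCB, and 1558 ± 34.7 in BBB with amanitin and 414 ± 29.5 in BBB, and rose by 1.70 and 1.87. Alkbh3, which reverses alkylation, rose by 0.51 and 0.59, and Alkbh2 was called lower in BBB alone (-0.34, adjusted p = 0.0513 in BCB, and -0.67 in BBB). Of 7 other ADP-ribose genes 3 rose and 2 fell in BCB, and 4 rose and 2 fell in BBB: Macrod1, which removes ADP-ribose, rose by 1.02 and 0.59, Tnks, which encodes tankyrase, by 0.90 and 1.11, and Zc3hav1, an antiviral PARP, fell by 2.07 and 2.15. Rises among partners are on the deposited scale and were not recomputed on the control scales.

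Between BCB and BBB embryos without the drug, 1 of the 66 genes was called, where 0.655% of all genes were (0.268% lower). Parp8, which transfers single ADP-ribose units, read 159.5, 141.2, 145.9 and 129.3 in BCB, against 264.2, 261.9, 301.5 and 221.5 in BBB. Every BCB array lay below every BBB array, and the change was -0.79 (SE 0.15, adjusted p = 0.00584). With amanitin it read 38.2, 66.3, 41 and 44.4 in BCB, against 42.5, 32.4, 38.1 and 34.4 in BBB, which overlap (0.25, adjusted p = 0.571). Parp8 thus fell in both kinds with the drug, by 1.35 in BCB and by 2.39 in BBB, and the difference between those changes was 1.04 (SE 0.21, adjusted p = 0.0291). This difference was called with all 16 arrays, but leaving out an array ended the call in 9 of 16 cases (BBB replicates 1, 2 and 3, BCB replicates 2, 3 and 4, BBB with amanitin replicates 2 and 4, and BCB with amanitin replicate 2), with values of 0.91 to 1.05 and adjusted p of 0.0503 to 0.0893. It was not called either under quantile normalization (1.01, adjusted p = 0.0632), median centring (0.96), the hybridization scale (0.83), the poly-A scale (1.03) or a pseudocount of 1 (1.19). The probe set read is the only tested probe set of the gene.

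With amanitin in both kinds, 1 gene was called between BCB and BBB (0.0786% of all genes, 0.0393% higher). Rmi1, a partner of BLM in resolving joined DNA molecules, read 909.2, 1289.9, 1269.6 and 1661.3 in BCB with amanitin, against 772.6, 686.7, 701.3 and 708.5 in BBB with amanitin. The groups did not overlap, at 0.79 (SE 0.13, adjusted p = 0.0191), a call lost on the hybridization scale (0.65), the poly-A scale (0.71), without an intensity trend (0.79, adjusted p = 0.0761), with array weights (0.78) and with the 8 arrays compared alone (0.79, adjusted p = 0.226). Untreated embryos read 588.8, 521.7, 537.7 and 541.3 in BCB, against 603.8, 551.7, 548.7 and 756.7 in BBB (-0.15, adjusted p = 0.984). The difference between the amanitin effects was 0.95 (SE 0.19, adjusted p = 0.0281), so that 2 member genes, Parp8 and Rmi1, were called for it (0.255% of all genes, 0.0655% higher). The next brightest probe sets of Rmi1 showed no such difference: with amanitin they gave -0.16 (adjusted p = 0.573) and -0.12 (adjusted p = 0.815), and the mean of its probe sets gave 0.00. Leaving out an array ended the call of the difference between the effects in 8 of 16 cases (BBB replicates 1 and 4, BCB replicates 2, 3 and 4, BBB with amanitin replicate 2, and BCB with amanitin replicates 2 and 3), with values of 0.85 to 0.95. Median centring (0.87), the hybridization scale (0.69), the poly-A scale (0.92), a pseudocount of 1 (0.96), no filter (0.95), no trend (0.95) and the mean of probe sets (0.25) ended it as well. Fancm, the motor that anchors the Fanconi core complex, was the brightest Fanconi gene; it fell by 1.06 in BBB with -0.16 in BCB (adjusted p = 0.419). It read 423.5, 331.5, 456.3 and 492.5 in BCB with amanitin, against 160.7, 266.4, 356.4 and 185.5 in BBB with amanitin. Untreated it read 464.4, 517.2, 434.3 and 476.7 in BCB, against 482.2, 558.6, 511.8 and 448.7 in BBB, so that all treated BBB arrays lay below all untreated ones while the BCB groups overlap. The difference between the amanitin effects, 0.90 (SE 0.24, adjusted p = 0.171), was not called, and its other probe sets gave 0.30 and 0.76, not called either. All 3 tested probe sets of Fancm were called lower in BBB, and 1 other than the probe set read was called lower in BCB too. That probe set read 217.5 to 302.6 in BCB with amanitin, against 355.7 to 580.6 in BCB, without overlap. C3H and B6 sequences can differ under a probe, and this was not tested.

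**Figure D5:**
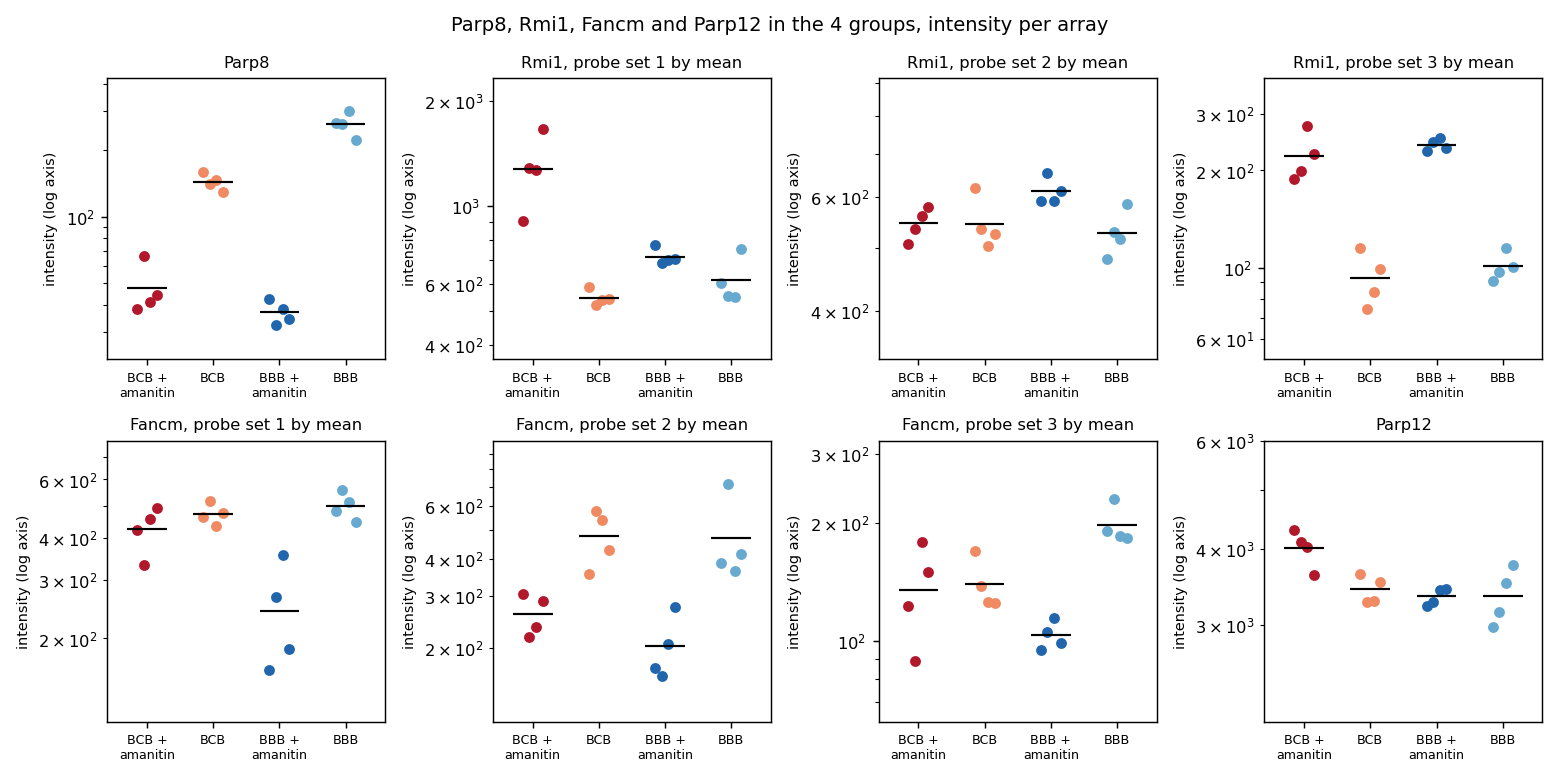
Intensity on each array (log axis, a range of its own per panel) of Parp8, of the 3 brightest probe sets of Rmi1, of the 3 of Fancm and of Parp12, with black lines at the means of 4 arrays. Untreated BCB arrays lie below untreated BBB arrays for Parp8, and the brightest probe set of Rmi1 is higher in BCB with amanitin than in BBB with amanitin while the other 2 are not.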

How the data were processed

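Intensities of 16 one-colour arrays were used as deposited by the authors. A Picopure kit served for extraction and an ENZO kit for biotin labelling, per the labels' protocols. Neither the software nor the scaling is given in the sources used here. The deposited intensity values are linear, never negative, and have the same mean on all arrays once the highest and lowest 2% are removed (150), while their percentiles differ, so they were scaled per array and not quantile normalized. Probe sets were named from the platform annotation: 34945 had 1 symbol, 932 several and 9160 none.

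Values were taken as log2(intensity + 16). Group means were fitted to all 16 arrays with limma 3.58.1 under R 4.3.3 (moderated by empirical Bayes, with an intensity trend), and p-values of the 31953 probe sets that passed the filter were adjusted by Benjamini-Hochberg. Contrasts, 5 in number, were amanitin against untreated in BCB and in BBB, BCB against BBB untreated and with amanitin, and the difference between the amanitin effects. Where several probe sets of a gene were tested, the one highest in mean log2 value was read. The fit was tested on simulated data. Precision is limited by 4 arrays per group.

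Values per array were given, in each set and kind, for the largest called rise, the largest called fall and the brightest gene, and for each member called in the strain contrasts or the interaction (at most 8 by adjusted p). Genes with probe sets called in opposite directions were named; other per-array values were chosen after they were seen. Of each partner list the largest called rise and fall were named. Members and lists were chosen with earlier results of these data known. Replicate numbers do not pair the arrays: of 24 same-numbered pairs across groups, 1 correlated over 0.1 (range -0.087 to 0.107). Alternatives were other scalings, pseudocounts of 1 and 64, other filters, the groups compared alone, a replicate block, no trend, array weights, averaging each gene's probe sets and leaving out each array. Promoter sequences are from RefSeq (GRCm38.p6).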

Additional observations from a re-analysis of the deposited data

Results flagged for a closer look

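In the 264 sets of 4 arrays checked (66 genes in 4 groups), 7 held an array far from the other 3, where chance alone gives about 1 in 20. In BCB with amanitin, Fancg read 72.8 in replicate 4 against 95.6 to 96.9 in the others, and Msh4 read 258 in replicate 3 against 168.1 to 182.3. In untreated BCB embryos, Parp3 read 21.9 in replicate 2 against 28.8 to 30.1, Rad54l2 read 220 in replicate 2 against 266.4 to 271.9, and Parp4 read 18.7 in replicate 4 against 11.4 to 12.2. In BBB with amanitin, replicate 2 stood apart in the macrodomain PARP genes Parp14, at 35.5 against 14.5 to 17.4, and Parp9, at 35.5 against 51.8 to 54.9, high in the first and low in the second.

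The amanitin effect was called different between BCB and BBB embryos for Parp8 (1.042) and for Rmi1 (0.9477), by the interaction term of the limma fit. Leaving out an array ended the call in 9 of 16 fits for Parp8 and in 8 of 16 for Rmi1. Median centring, either control scale or a pseudocount of 1 ended both calls. The mean of probe sets ended that of Rmi1. Parp8 fell less in BCB than in BBB, and the probe set read for Rmi1 rose in BCB and was not called in BBB.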

How the results depend on the processing

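Among 53 changes of 29 genes named by the rule, 26 turned direction under another scaling with a call on at least 1 side, and no called change turned under the alternatives that keep the scaling. The uncalled change of Parp12 in BBB, near 0, changed sign with array weights and in 4 of 16 leave-one-out fits, and that of Fancm in BCB under quantile normalization. Under quantile normalization Brca2 was at -0.37 in BCB and -0.15 in BBB and Parp12 at -0.31 and -0.54. Scaled to the hybridization controls, BCB values were Brca2 -0.59, Rad23b -0.058, Parp12 -0.55, Rad18 -0.28 and Xrcc4 -0.22, and BBB values Brca2 -0.072, Parp12 -0.50 and Rad18 -0.12; genes called higher in BCB numbered 8, against 16 in BBB. Scaled to the poly-A controls, 0 genes were higher and 60 lower in BCB, and 0 higher and 57 lower in BBB; the BCB values were Chek1 -0.80, Rad51d -0.19, Brca2 -1.62, Ercc8 -0.62, Rad23b -1.09, Ercc6l2 -0.53, Fancc -0.17, Msh3 -0.17, Neil3 -0.85, Parp6 -0.12, Parp12 -1.58, Rad18 -1.18, Xrcc5 -0.75 and Xrcc4 -1.10, and the BBB values Atr -0.36, Chek1 -0.86, Brca2 -1.34, Ercc8 -0.77, Rad23b -1.03, Ercc6l2 -0.41, Fancc -0.27, Neil3 -0.31, Parp6 -0.13, Parp12 -1.77, Rad18 -1.26 and Xrcc4 -0.86. Shares of all genes called were not counted on either control scale, so these counts of members have no background beside them. All genes had medians of -0.34 in BCB and -0.22 in BBB on the hybridization scale, and of -1.08 and -1.11 on the poly-A scale. These scalings differ by construction in what they hold constant, and which is nearer to RNA per embryo was not tested. All 24 genes called lower in BCB and all 27 in BBB on the deposited scale stayed called lower on both control scales. Both control scales move the changes with amanitin downward, so a fall could hardly be lost on them. Under quantile normalization 21 of the 24 in BCB and 22 of the 27 in BBB stayed called lower. Genes called for the difference between the amanitin effects numbered 2, but 1 under quantile normalization, no filter, no trend or the mean of probe sets, and 0 under median centring, either control scale or a pseudocount of 1. Between BCB and BBB with amanitin 1 was called, but 0 under either control scale, no trend, array weights, the groups compared alone or the mean of probe sets; untreated, 2 were called with array weights against 1. Leaving out each array gave 25 to 28 higher and 23 to 25 lower in BCB, 22 to 25 higher and 26 to 28 lower in BBB, 1 to 1 between untreated kinds, 1 to 3 with amanitin and 0 to 3 for the difference; the causes were not tested. With the replicate block, 27 genes were higher and 24 lower in BCB, 25 higher and 27 lower in BBB, 1, 1 and 2 were called in the other contrasts, and no named call changed. Apart from the control scalings, 1375 of the refitted named values kept direction and call, 43 lost the call, 1 gained it, 4 turned and 6 uncalled ones changed sign. A filter at the 60th percentile left 59 of the 66 genes. Dim genes, such as Parp4, Rmi2 and Rad54b, lie near the pseudocount, where changes are compressed.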

Other observations

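Some repair genes start close to a gene on the opposite strand. RefSeq places an opposite-strand gene start at most 500 bases upstream of the start of 19 of the members tested, in 20 pairs. Starts downstream were not counted. Of the 20 pairs 13 have a tested neighbour. Both genes of a pair were called in both kinds of embryo in 6 of them, in the same direction in 5 and in opposite directions in 1. Of all genes tested, 33.7% were higher in both kinds and 29.9% lower in both. Pairs of other genes were not counted, so the numbers of pairs have no background of their own. Fancb and Mospd2, Rad51c and Tex14, and Xrcc3 and Zfyve21 were higher with amanitin, and Rad9b with Vps29 and Rad51ap1 with D6Wsu163e were lower. Xrcc4 and its neighbour Tmem167, whose starts lie 59 bases apart, moved apart: Xrcc4 rose by 0.44 in BCB and 0.71 in BBB, while Tmem167 was lower (-2.16 and -1.99), averaging 150 ± 12 in BCB with amanitin and 727 ± 20.2 in BCB, and 193 ± 46.9 in BBB with amanitin and 803 ± 51.2 in BBB (SD, n = 4 each). Relative to the poly-A controls Xrcc4 was below 0 in both kinds.

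Rmi1 faces Hnrnpk, a ribonucleoprotein gene, at 131 bases. Hnrnpk averaged 258 ± 39.1 in BCB with amanitin and 4096 ± 130 in BCB, and 322 ± 58.1 in BBB with amanitin and 3749 ± 116 in BBB, a change of -3.92 and of -3.49. Xrcc6 was not called while Desi1, at 149 bases, rose by 1.83 and 1.68 on the deposited scale. The probe set read for Parp3 was called lower in BBB alone, and its other 2 tested probe sets in both kinds. Parp3 faces Rrp9, which was at -3.50 and -4.05. These pairs were found by position and are a description; no test of neighbours against other genes was made.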
